A study of Mus musculus with 6 samples.

Results

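Genes of 10 microtubule regulators were examined in cells sorted as upper-layer cortical neurons from young mice. They were the microtubule-associated protein (MAP) genes Map1a, Map1b, Map2 and Mapt, the doublecortin genes Dcx and Dclk1, and the stathmin genes Stmn1, Stmn2, Stmn3 and Stmn4. The members were the rows of the deposited table of 22544 genes that carry these names. Of the 10, 7 matched by symbol, and Map1a, Map1b and Map2 were found under their older symbols Mtap1a, Mtap1b and Mtap2. The study sorted GFP-labelled neurons of Swiss Webster mice by fluorescence on postnatal day 3 (P3) or day 5 (P5), with 3 biological replicates per age and no other treatment or allele in the labels. How the neurons came to carry GFP, and how many animals made up a sample, is not given in the sources used here. The series concerns how neurons become post-mitotic, and its 1 comparison is P5 against P3.

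Microtubules give growing axons and dendrites their shape and carry their transport. Structural MAPs bind along the microtubule and stabilise or space it: MAP1B and doublecortin are classically high in migrating neurons and growing axons, whereas MAP1A, MAP2 and tau (the product of Mapt) are associated with maturing dendrites and axons. Stathmins work the other way, since they bind free tubulin and favour disassembly. On this textbook basis Dcx, Dclk1, Map1b, Stmn1 and Stmn2 were taken as early genes and Map1a, Map2 and Mapt as late genes, and Stmn3 and Stmn4 were put in neither class.

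The members fall into families, and how alike their coding sequences are bears on whether reads can be told apart. For the MAP1 genes, the tau and MAP2 genes and the stathmins the ungapped stretch of 60 coding bases most alike between members (for the stathmins, the stretch of Stmn1 with the most bases matched by Stmn2, Stmn3 and Stmn4) is shown 5′ to 3′ on the coding strand, from GENCODE M21 transcripts on GRCm38. Capitals mark bases that differ from the first sequence of each set.
Map1b: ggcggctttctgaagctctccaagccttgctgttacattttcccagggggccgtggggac
Map1a: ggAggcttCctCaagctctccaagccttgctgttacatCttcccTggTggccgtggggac
The MAP1 pair, in exon 5 of Map1b (chr13:99435399-99435458, minus strand) and exon 5 of Map1a (chr2:121299506-121299565, plus strand), differed at 6 of 60 bases.
Mapt: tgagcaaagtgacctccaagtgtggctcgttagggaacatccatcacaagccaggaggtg
Map2: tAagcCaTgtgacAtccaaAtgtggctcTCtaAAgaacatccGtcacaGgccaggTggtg
Tau and MAP2 share microtubule-binding repeats, and these stretches lie in them. They span exons 10 to 11 of Mapt (chr11:104321379-104322433) and exons 13 to 14 of Map2 (chr1:66433542-66438259), both on the plus strand, and differed at 12 bases.
Stmn1: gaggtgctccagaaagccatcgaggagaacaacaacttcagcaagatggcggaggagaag
Gm11223: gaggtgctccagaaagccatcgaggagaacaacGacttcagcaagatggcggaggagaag
Stmn2: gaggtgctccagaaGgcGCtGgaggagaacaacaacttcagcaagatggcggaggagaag
Stmn3: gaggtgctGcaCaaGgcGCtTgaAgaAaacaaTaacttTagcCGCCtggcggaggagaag
Stmn4: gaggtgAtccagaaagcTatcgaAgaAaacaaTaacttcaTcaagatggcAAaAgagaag
The stathmin stretch lies in exon 3 of Stmn1 (chr4:134472858-134472917, plus strand), exon 4 of Stmn2 (chr3:8554846-8554905, plus strand), exon 4 of Stmn3 (chr2:181307294-181307353, minus strand) and exon 5 of Stmn4 (chr14:66357900-66357959, plus strand). Stmn2 differed from Stmn1 at 4 bases, Stmn4 at 9 and Stmn3 at 14. Gm11223, a processed pseudogene copied from Stmn1 (chr4:69925780-69925839, minus strand), differed at 1.

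Shared sequence was extensive in 1 member. Of all 50-base windows of a Stmn1 transcript of 967 bases, 38.2% occurred without a mismatch in Gm11223, and the coding sequence was identical to it at 446 of 447 bases. GENCODE annotates only 450 bases of this pseudogene, whereas RefSeq gives it 970, so the shared part may be longer. In Map1a, 1.89% of windows were shared, with the neighbouring gene Ppip5k1. In Map2, 0.274% were shared with the annotated gene Gm10558, and in Dclk1 0.531% with Gm42609. For Map1b, Mapt, Dcx, Stmn2, Stmn3 and Stmn4, no 50-base window of the 1 transcript used recurred in an annotated transcript of another gene. The transcripts used for Mapt and Dcx were short, at 1362 and 1333 bases, of which 1290 and 1080 were coding. Sequence outside the transcripts used, and the genome outside annotated transcripts, was not searched. With windows of 36 bases Stmn1 and Stmn2 shared 8 windows with each other, and with windows of 75 bases the shared part of Stmn1 was 33.7%.

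**Figure D1:**
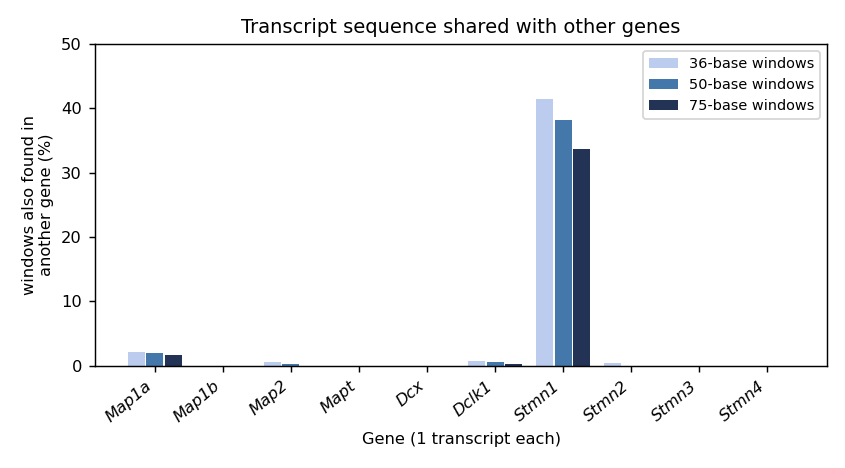
Percentage of windows of 36, 50 and 75 bases (bars) of 1 GENCODE M21 transcript per member that occur without a mismatch in transcripts of another gene, on either strand. Stmn1 stands at 41.5%, 38.2% and 33.7%, and no other member exceeds 2.03%.

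All levels below are FPKM (fragments normalised for transcript length and for the number of fragments in the library), given in the authors' deposited table as 1 value per age pooled from the replicates. Levels can therefore be compared between genes per length, but no value per replicate was used, and the depth of the libraries is unknown. The error of a log2 ratio (P5 over P3) is the standard error (SE) implied by the authors' Cuffdiff statistic, with a 95% interval of 1.96 SE either side. Cuffdiff tested 9 of the 10 members. Dcx has the status FAIL, which gives values but no test.

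None of the 9 tested members differed between P3 and P5 by the Cuffdiff test at q = 0.05, where 0% of the 12865 genes tested in the whole table did. Every one of the 9 has q = 0.999988 in the authors' deposited table. At an unadjusted p under 0.05 there were 0 members, against 0.77% of all tested genes, and the members' p ranged from 0.266 (Map1a) to 0.982 (Map1b) in the authors' deposited table. FPKM was higher at P5 in 7 of the 9 and lower in 2, beside 55.6% higher and 44.4% lower among 12313 tested genes above 0 at both ages. It was at least 2-fold higher in 4 of the 9, beside 23.9%. These shares describe pooled values and carry no replicate error.

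**Figure D2:**
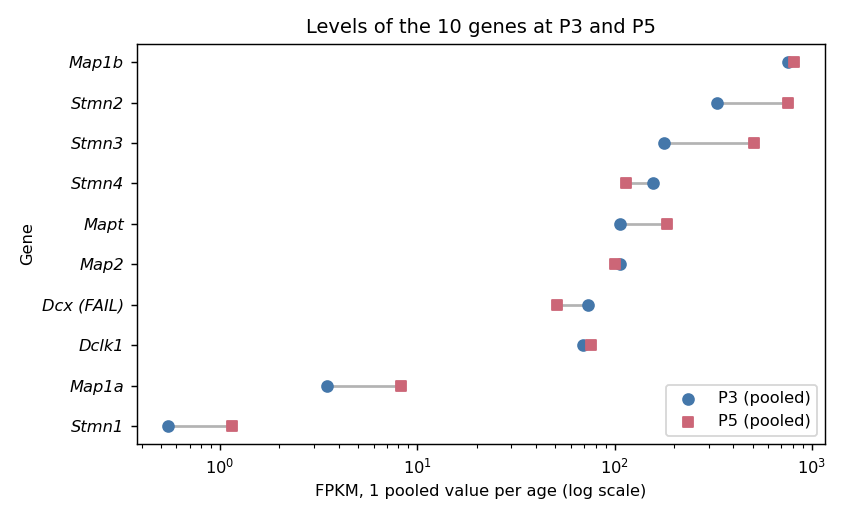
FPKM of each member at P3 (circles) and P5 (squares) on a log axis, 1 pooled value per age, ordered by the P3 level. Map1b (754 and 809) and Stmn2 (332 and 758) lie at the top, and Map1a (3.47 and 8.27) and Stmn1 (0.544 and 1.15) at the bottom.

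Among the MAP genes, the early and the late MAP1 gene stood far apart in level at both ages. Map1b (mm9 chromosome 13, 100191419 to 100286557), which encodes a MAP of growing axons, was listed at 754 FPKM for P3 and 809 for P5. That was the highest level of the set at either age and place 42 and 27 of all rows. Its log2 ratio was 0.10 with an SE of 4.53, so that even a large change in either direction was not detectable. Map1a (mm9 chromosome 2, 121115338 to 121176749), which encodes the related MAP of mature dendrites, was listed at 3.47 FPKM for P3 and 8.27 for P5. Its level was thus 0.46% of the Map1b level at P3 and 1.02% at P5. The log2 ratio of Map1a was 1.25 (SE 1.13), which is a 2.38-fold difference with an interval of 0.516 to 11.0. The ratios of Map1a and Map1b differed by 1.15 log2 units, with an interval of -8.0 to 10.3 if their errors are taken as independent. The deposited locus of Map1a is the same as that of Ppip5k1, which was at 0.18 and 0.0812 FPKM and was not tested.

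Map2 and Mapt, the genes of the main dendritic and axonal MAPs of mature neurons, had the same level at P3 and not at P5. Map2 (mm9 chromosome 1, 66221903 to 66489157) stood at 107 FPKM on P3 and 101 on P5, with a ratio of -0.08 log2 units (SE 1.26). Mapt (mm9 chromosome 11, 104092750 to 104193407) stood at 107 and 183 FPKM, with a ratio of 0.78 log2 units (SE 2.0). The level of Mapt was 1.82 times that of Map2 at P5. Their ratios differed by 0.86 log2 units with an interval of -3.77 to 5.49, so the separation at P5 lies within the error. The pooled values cannot show which splice forms, such as juvenile or adult tau and MAP2, made up these levels.

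Both doublecortin genes were abundant at both ages. Dcx (mm9 chromosome X, 140290385 to 140367762), whose protein stabilises microtubules in migrating neurons and which is a common marker of immature neurons, was listed at 73.0 FPKM for P3 and 51.0 for P5. The ratio of these values is 0.698 (-0.52 on the log2 scale). It has no test or error, since the authors' deposited table sets the log2 ratio, the statistic and p of a FAIL row to 0, 0 and 1. Of 37 such rows in the table, 11 reached 50 FPKM at either age, so the status was not limited to rare transcripts. Dclk1 (mm9 chromosome 3, 55046448 to 55342990), which joins a doublecortin domain to a kinase domain, had 69.0 and 76.0 FPKM, a log2 ratio of 0.14 (SE 1.42). The level of Dcx was 1.06 times that of Dclk1 at P3 and 0.671 times at P5, an order that changed without a test of the change.

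Of the stathmin genes, 3 had higher FPKM at P5 and 1 had lower. Stmn2 (mm9 chromosome 3, 8509527 to 8561604), the neuronal stathmin of growth cones also known as SCG10, was listed at 332 FPKM for P3 and 758 for P5. Its log2 ratio was 1.19 (SE 1.98), 2.29-fold with an interval of 0.155 to 33.7. Stmn3 (mm9 chromosome 2, 181041164 to 181049205), also a membrane-bound neuronal stathmin, had 179 and 511 FPKM. Its log2 ratio of 1.52 (SE 1.39) was the highest of the set, 2.86-fold with an interval of 0.432 to 19.0. Stmn4 (mm9 chromosome 14, 66963212 to 66980517), the stathmin also called RB3, had 156 and 114 FPKM. Its log2 ratio was -0.45 (SE 0.90), the narrowest error among the members.

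Stmn3 and Stmn4 were thus close in level at P3, at a ratio of 1.14, and 4.47 apart at P5. Their log2 ratios differed by 1.97 with an SE of 1.66 and an interval of -1.28 to 5.22 if errors are independent, which includes 0. In the summed FPKM of the 4 stathmins, Stmn4 made up 23.4% at P3 and 8.26% at P5, Stmn3 26.8% and 36.9%, and Stmn2 49.7% and 54.7%. The sum itself was 667 FPKM at P3 and 1384 at P5.

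Stmn1 (mm9 chromosome 4, 134024235 to 134029758), the founding and cytosolic member of the family and usually abundant in immature neurons and dividing cells, was listed at only 0.544 FPKM at P3 and 1.15 at P5. Stmn2 was listed at 609 and 661 times these levels. The log2 ratio of Stmn1 was 1.08 (SE 2.85), and with a pseudocount of 1 FPKM it was 0.48. This is the member whose transcript shares 38.2% of its windows with Gm11223. The authors' deposited table has no row named Gm11223, so the level of the pseudogene could not be read. How the authors' counting treated reads that fit several places is not given in the sources used here, so the level of Stmn1 is uncertain and the part of the shared sequence in it was not tested.

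**Figure D3:**
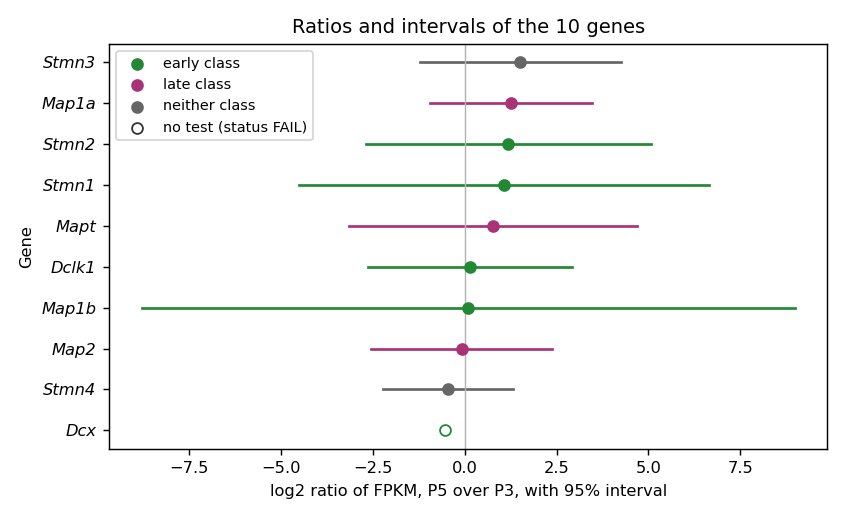
Log2 ratio of FPKM (P5 over P3) for each member with its 95% interval from the deposited statistic, coloured by class, and without an interval for Dcx, which was not tested. All 9 intervals include 0, from -2.22 to 1.31 for Stmn4 to -8.78 to 8.98 for Map1b.

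By class, the pooled ratios of early and late genes overlapped. The median SE was 2.42 log2 units for the tested early genes and 1.26 for the late genes. Errors of this size cannot show whether the classes differ. The 5 early genes had log2 ratios from -0.52 (Dcx) to 1.19 (Stmn2) with a median of 0.14, and 4 of the 5 were higher at P5. Without Dcx, which was not tested, the median of the early genes was 0.61. The 3 late genes had ratios from -0.08 (Map2) to 1.25 (Map1a) with a median of 0.78, and 2 of the 3 were higher. The ranges of the classes overlap over most of their length, beside a median of 0.13 for all tested genes above 0 at both ages. In level the order of the classes depended on the summary. The 5 early genes had a summed FPKM of 1228 at P3 and 1694 at P5 and the 3 late genes one of 217 and 293, and most of the early sum came from Map1b and Stmn2. Median FPKM was lower in the early genes at both ages, at 73.0 and 76.0 against 107 and 101.

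The order of the levels changed little between the ages. At P3 it ran from Map1b through Stmn2, Stmn3, Stmn4, Mapt, Map2, Dcx, Dclk1 and Map1a to Stmn1. At P5 Mapt stood above Stmn4 and Dclk1 above Dcx, and the other places were the same. Because the table gives no error for a level, neighbours in this order cannot be said to differ. With 1 value per age, genes were not ranked by how alike their patterns are.

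The errors of the abundant members were wide for their level. All tested members but Map1a and Stmn1 belong to the highest decile of genes by mean FPKM, in which the median SE was 0.98 log2 units. Of these 7, Map1b had a larger SE than 98.4% of that decile, Mapt and Stmn2 than 95.5%, Dclk1 than 89.2%, Stmn3 than 88.4% and Map2 than 83.0%. Only Stmn4, at 26.0%, was below the middle of that decile. The SE of Map1a was 1.13, close to the 1.26 that is the median of its own decile. The 7 members were also set beside 844 tested genes with at least 50 FPKM at both ages. FPKM was higher at P5 in 5 of the 7, against 41.8% of those genes. Of the 7, 2 (Stmn2 and Stmn3) were at least 2-fold higher at P5, against 3.91%. In each of these 2 genes the interval includes 1-fold.

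**Figure D4:**
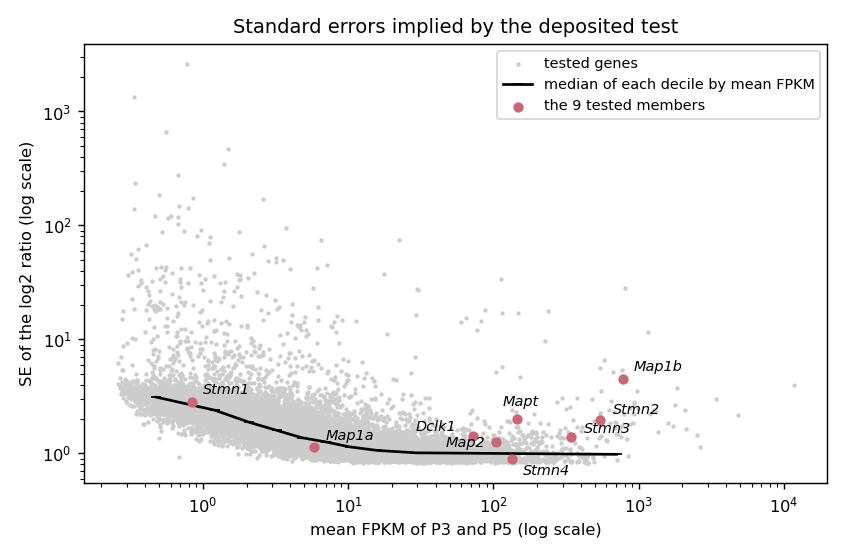
SE of the log2 ratio against the mean FPKM of both ages, both on log axes, for all tested genes (grey) and the 9 tested members (red), with a line through the median SE of each decile of genes by mean FPKM. Map1b (SE 4.53), Mapt (2.0) and Stmn2 (1.98) lie above the line, which ends at 0.98, and Stmn4 (0.90) lies below it.

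Other genes that act on microtubules were taken from 8 lists of 131 genes, all found in the table. Cuffdiff tested 119 of them, and 0 passed at q = 0.05 or at an unadjusted p under 0.05. Of 118 with FPKM above 0 at both ages, 61 were higher and 57 lower at P5, with a median log2 ratio of 0.02. Those most like the members, other structural MAPs and doublecortin relatives, had 12 of 16 higher and a median of 0.53. In that list Map1lc3b and Map1lc3a, which encode LC3 proteins first found as light chains of MAP1, had 259 and 187 and 46.3 and 76.2 FPKM. Tppp3, of the tubulin polymerisation promoting family, had 0.967 and 15.2 FPKM, and Jakmip1, which links microtubules to kinases and receptors, 25 and 10.6.

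The lists of plus-end tracking proteins (14 of 23 higher, median 0.06) and of lissencephaly and dynein partners (8 of 14 higher, median 0.06) lay near 0. Among plus-end genes, Nav2 was at 75.5 and 48.1 FPKM, Mapre2, an end-binding protein, at 49.9 and 70.8, Tacc1 at 7.17 and 24.9 and Slain1 at 34.2 and 14.6. The dynactin subunits Dctn4 and Dctn3 had 256 and 162 and 116 and 128.5 FPKM, and Ndel1 and Pafah1b1 (the lissencephaly gene Lis1) 6.79 and 13.1 and 27.4 and 19.2. Minus-end and severing genes had 5 of 11 higher and a median of -0.19, but a mean of 0.59. The severing enzyme gene Spast had 30.6 and 26.8 FPKM, its relative Fignl1 1.12 and 7.49, and the minus-end binder Camsap2 17.8 and 13.1.

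Kinases and phosphatases that act on MAPs had 4 of 18 higher and 14 lower at P5, with a median of -0.25. Gsk3b, which phosphorylates tau and MAP1B, was listed at 1134 and 808 FPKM, with a ratio of -0.49 log2 units (SE 3.55). The tau kinase Cdk5 was at 15.2 and 20.2 FPKM and its activator Cdk5r1 at 47.8 and 23.7, and the phosphatase subunit Ppp2r2b at 114 and 109. Tubulin chaperones had 3 of 8 higher (median -0.22), with Arl3 at 304 and 199.9 FPKM, Tbcb at 191 and 188, Arl2 at 23.1 and 45.0 and Tbce at 22.7 and 6.93. Tubulin modifying enzymes had 9 of 17 higher and a median of 0.04, which was -0.02 when ratios were centred on the upper quartiles of FPKM and -0.21 as a mean. Svbp, the partner of the detyrosinating vasohibins, had 122 and 125 FPKM, Vash2 17.2 and 12.3, the tubulin acetylase gene Atat1 85.9 and 90.3 and the deacetylase gene Sirt2 49.5 and 92.3. Mitotic spindle MAPs had 6 of 11 higher and a median of 0.01, which was -0.01 when ratios were centred on the median of tested genes. The mean of that list was 0.5. Ckap2l had 15.6 and 13.4 FPKM, Nusap1 14.2 and 7.98 and Prc1 9.09 and 12.6.

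**Figure D5:**
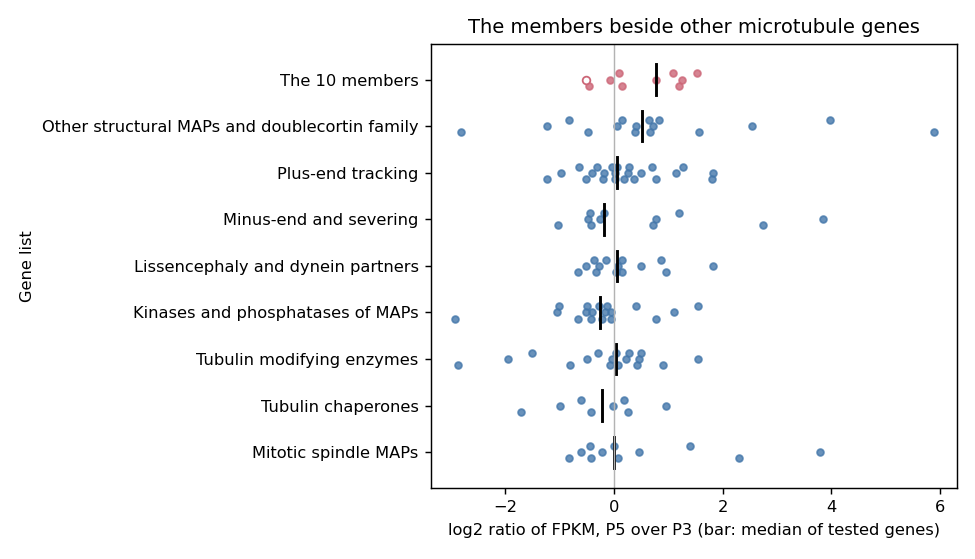
Log2 ratio of FPKM (P5 over P3) of each tested gene (points) in the members' set (top) and in 8 other lists of microtubule genes, with a bar at the median of tested genes and an open point for Dcx. The medians lie at 0.78 for the 9 tested members and between -0.25 and 0.53 for the other lists. With Dcx, which was not tested, the median of the 10 members is 0.46, within the range of the other lists.

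Markers of other cells were also read in these sorts, as counts of genes with higher FPKM at P5 and as summed FPKM at P3 and P5. No marker passed the Cuffdiff test at q = 0.05, where 0% of all tested genes did. An unadjusted Cuffdiff p under 0.05 was found for 5 markers, against 0.77% of all tested genes. They were 2 of 9 microglia, 1 of 9 astrocyte, 1 of 10 oligodendrocyte lineage and 1 of 8 endothelial and mural markers. Of all tested genes above 0 at both ages, 55.6% were higher at P5. Upper-layer markers were detected at both ages (7 of 7 above 0, summed FPKM 441 and 453, 4 of 7 lower at P5). General neuronal markers were higher in 7 of 9 (271 and 481). Of the lists of other cells, microglia had 9 of 9 higher (16.2 and 134), the oligodendrocyte lineage 8 of 8 above 0 at both ages (124 and 260 over all 10, with Mog and Mag listed at 0 at P3), astrocytes 8 of 9 (2376 and 3011), and endothelial and mural cells 6 of 8 (915.5 and 947). The astrocyte sum was above those of the general neuronal and upper-layer lists at both ages. Most of it was Slc1a3 (1088 and 758 FPKM), Aldoc (767 and 773) and Gja1 (362 and 717). Sums over different genes do not give shares of cells. Nearly all of the endothelial and mural sum was Rgs5, at 910.6 FPKM for P3 and 905.3 for P5. Of the 8 genes in that list, 6 were higher at P5, among them Vtn at 1.40 and 25.1 FPKM, and 2 were lower. Interneuron markers had 5 of 8 higher (252.5 and 511.5) and radial glia and progenitor markers 1 of 8 (201 and 143). Most of the interneuron sum was Npy, at 154.5 and 356.2 FPKM, and Sst, at 30.06 and 95.59. In the interneuron list 3 of 8 were lower at P5, among them Dlx1 at 28.5 and 15.65 FPKM. Several members are also made outside upper-layer neurons, such as Dcx and Stmn2 in interneurons, Mapt in oligodendrocytes and Dclk1 in radial glia. In bulk RNA fewer cells of a type and less RNA per cell cannot be told apart, and the part of these cells in the members' values was not tested.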

How the data were processed

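RNA from sorted neurons (3 samples at P3, 3 at P5) was sequenced. TopHat, Cuffdiff 2.02 and the build mm9 are named, without their roles, in the submitters' processing notes. The authors deposited FPKM per gene and age, pooled over replicates, per the file headers. The deposited log2 ratio and test statistic were handled as scores, because placeholders stand where 1 age is at 0. The p-values and q-values are those deposited by the authors. The depth is unknown, strandedness and annotation were not given in the sources used here, and 0 columns of per-sample values were left aside.

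The main test was the authors' Cuffdiff test at q = 0.05 for rows with status OK. SEs are the size of the log2 ratio divided by the size of the statistic, since the deposited statistic has the opposite sign to the ratio in all 12313 rows above 0 at both ages. Its two-sided normal tail matched p to within 2.8e-06 there. Across genes the statistic had a robust spread of 0.66, so SEs may be too wide. The calculations were tested on simulated data. Python 3.11.15, pandas 2.3.3, scipy 1.17.1 and matplotlib 3.10.9 were used. Older symbols were matched through RefSeq (GRCm38.p6). Loci are mm9, printed counted from 1. Sequences come from GENCODE M21 (GRCm38), using the principal transcript with the longest coding part.

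Members, classes and lists were chosen with earlier results of these data known. Named were all 10 members and, per list, the 2 tested genes with the highest mean FPKM and the gene with the lowest p in each direction with at least 5 FPKM at either age. Alternatives were q at 0.01, at least 1 FPKM, Bonferroni adjustment, a rescaled statistic, pseudocounts of 1 and 0.1 FPKM, 2 centrings, and means. Some sequences and 1 further gene are not reported here.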

Additional observations from a re-analysis of the deposited data

How the results depend on the processing

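No paired analysis was possible because the table holds 1 pooled value per age, and leaving out replicates was not run for the same reason. The number of genes past the test was 0 as reported and 3 with the test statistic divided by its robust spread, and 0 members passed with either. Among genes of at least 1 FPKM at either age, 0 genes passed. A q threshold of 0.01 and Bonferroni adjustment are stricter than the main test, so they could only give 0. With that rescaled statistic the members' adjusted p ranged from 0.83 (Map1a) to 1. Log2 ratios of the 10 members kept their direction with both centrings, which moved them by only 0.019 and 0.06 log2 units. Pseudocounts of 1 and 0.1 FPKM can change the size of a ratio but not its direction. The medians of the early genes, late genes and stathmins kept their direction under each alternative run. The median of the early genes was 0.12 without Stmn1, an alternative chosen after seeing the data, and that of the stathmins 1.19. Of the other lists, minus-end and severing genes had -0.19 as a median and 0.59 as a mean. Tubulin modifying enzymes had 0.04, which was -0.02 when centred on the upper quartiles and -0.21 as a mean. Mitotic spindle MAPs had 0.01, which was -0.01 when centred on the median of tested genes, -0.05 when centred on the upper quartiles and 0.5 as a mean. The cause was not tested.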
